A study of Mus musculus with 36 samples.

Results

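Interferon beta and the parts that receive and relay interferon signals are 9 genes here, chosen by symbol from 36528 genes in the deposited tables: the ligand gene Ifnb1, the receptor chains Ifnar1, Ifnar2, Ifngr1 and Ifngr2, the Janus kinases Jak2 and Tyk2, and the transcription factors Stat2 and Stat3. All 9 were found, and all 9 passed the filter on low counts. The measurements are RNA sequencing of macrophages grown from mouse bone marrow. The 18 libraries labelled WT came from 3 mice with wild-type Cop1, and the 18 labelled Loxp from 3 mice with loxP-flanked Cop1, a gene for a ubiquitin ligase. Both genotypes carried CreERT2, a Cre recombinase that tamoxifen activates, at Rosa26, a locus that is expressed in most cell types. Each mouse gave an untreated library, T0, and 5 libraries after 100 ng/ml of lipopolysaccharide (LPS), added at day 7 of differentiation and labelled T2.5, T4, T6, T9 and T13. That makes 12 groups of n = 3. The sources used here do not give the unit of the time labels, the ages of the mice, any tamoxifen treatment or the deleted part of Cop1. Since untreated cells were labelled at T0 only, LPS and time in culture cannot be told apart.

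LPS, a component of bacterial outer membranes, acts through the receptor TLR4, and macrophages answer with interferon beta, a secreted type I interferon. Interferon beta binds the receptor of the chains IFNAR1 and IFNAR2, on which TYK2 and a partner Janus kinase phosphorylate STAT2 and its partner; with IRF9 these form ISGF3, the factor that switches on antiviral genes. Interferon gamma, a product of lymphocytes, instead binds IFNGR1 and IFNGR2 and uses JAK2. STAT3 relays signals of interleukin 10 and of the interleukin 6 family, and in macrophages it restrains inflammatory genes downstream of interleukin 10.

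Libraries held 24069541 to 40298009 counted reads, with a median of 34549113. In Loxp T9 replicate 2 there were 15045 genes with a read, fewer than the 17622 to 19693 of the rest. The libraries of WT replicate 2 held both Xist, at 25.6 to 89.8 CPM (counts scaled by sequencing depth with TMM factors), and 4 Y-linked genes, at 38.5 to 67.6 CPM together; in the other 5 mice Xist was at most 0.900 CPM. Whether these libraries hold RNA of more than 1 mouse is not known; they are counted as 1 mouse, as labelled, and values without them are given beside the genotype calls. Cop1, listed under its older symbol Rfwd2, was lower in Loxp than in WT cells at every time, with log2 fold changes from -0.70 at T0 to -1.21 at T2.5. Marker genes of other cells differed as well. The summed level of 12 stromal and endothelial markers at T0 was 318 to 751 CPM in WT and 108 to 169 CPM in Loxp libraries, and that of 8 macrophage markers was 18044 to 19719 CPM in WT and 23354 to 24480 CPM in Loxp libraries. At T0 the dendritic markers summed to 51.6 to 128 CPM in WT and 33.5 to 53.4 CPM in Loxp libraries. The plasmacytoid dendritic markers summed to 172 to 243 and 187 to 230 CPM, and the neutrophil and precursor markers to 37.5 to 113 and 36.9 to 45.6 CPM. The plasmacytoid sum rested on Bst2 (675079 reads over all libraries) and Tcf4 (211743), named here after their values were seen. Ccr9 held 2687 reads, Siglech 106 and Klk1 3, so the sum does not show that plasmacytoid dendritic cells were present. Lymphocyte markers, those of the main source of interferon gamma, were at most 3.30 CPM in any library.

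The upstream windows of 4 of the 9 genes held a motif searched for, and they are shown because their letters correspond to factors of this pathway. Each is the 250 bases before a RefSeq transcript start of the gene on GRCm38.p6, written 5′ to 3′ on the gene's strand, with the motif matches in capitals. The motifs were the core of interferon regulatory factor (IRF) sites, AANNGAAA, the interferon-stimulated response element (ISRE), which is GAAA repeated after 2 bases of any kind, the gamma-activated site (GAS) TTCNNNGAA, the kappa B site, which is GGG and TTCC with 3 bases of any kind between and the AP-1 site TGANTCA, each on both strands. Ifnb1 is shown for its enhancer next to the start (chr4:88522795-88523044, minus strand), Stat2 for an ISRE (chr10:128270248-128270497, plus strand), Ifnar2 for a GAS (chr16:91372533-91372782, plus strand) and Ifngr2 for a kappa B match (chr16:91546809-91547058, plus strand).
Ifnb1: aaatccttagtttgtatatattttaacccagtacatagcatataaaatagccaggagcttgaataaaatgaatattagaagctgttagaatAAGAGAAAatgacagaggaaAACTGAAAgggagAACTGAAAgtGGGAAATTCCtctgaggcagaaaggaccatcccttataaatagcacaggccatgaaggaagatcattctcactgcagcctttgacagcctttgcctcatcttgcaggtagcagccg
Stat2: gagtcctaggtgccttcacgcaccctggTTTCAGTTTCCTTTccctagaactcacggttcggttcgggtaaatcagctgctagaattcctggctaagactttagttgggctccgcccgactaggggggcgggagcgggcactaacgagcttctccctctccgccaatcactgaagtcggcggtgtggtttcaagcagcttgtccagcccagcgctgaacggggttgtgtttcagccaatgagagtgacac
Ifnar2: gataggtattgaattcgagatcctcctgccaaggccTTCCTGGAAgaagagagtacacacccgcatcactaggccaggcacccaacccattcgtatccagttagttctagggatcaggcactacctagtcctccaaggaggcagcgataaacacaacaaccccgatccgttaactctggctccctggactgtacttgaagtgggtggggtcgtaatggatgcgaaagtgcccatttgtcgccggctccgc
Ifngr2: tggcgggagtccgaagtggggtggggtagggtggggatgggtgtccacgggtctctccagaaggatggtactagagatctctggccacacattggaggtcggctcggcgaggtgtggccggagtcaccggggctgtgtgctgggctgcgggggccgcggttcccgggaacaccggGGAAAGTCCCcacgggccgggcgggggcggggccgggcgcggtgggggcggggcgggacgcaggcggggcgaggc

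In Ifnb1 the capitals mark 3 IRF cores, from 159, 139 and 126 bases before the start, and a kappa B match from 116 to 107 bases before it. The interferon beta enhanceosome, an assembly of IRF, NF-kappa B and AP-1 family proteins, is known to form upstream of this gene. Positions here count from the RefSeq start used, and which of the matches belong to the enhanceosome was not tested. In Stat2 the ISRE lies on the opposite strand, 222 to 213 bases before the start, and overlaps 2 IRF cores. In Ifnar2 the GAS, 214 to 206 bases before the start, reads the same on both strands, and in Ifngr2 the kappa B match lies on the opposite strand, 75 to 66 bases before the start. Of 27025 RefSeq promoter windows of this length, 21.6% held an IRF core, 3.04% an ISRE, 7.18% a GAS, 4.6% a kappa B match and 6.87% an AP-1 match. The windows of Ifnar1, Ifngr1, Stat3, Jak2 and Tyk2 held none of these letters; for Ifnar1, Stat3 and Tyk2 the transcript start used lies inside the RefSeq span of the gene, so the window includes some bases of that span. No match is evidence that a factor bound.

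With LPS, 8 of the 9 genes rose at every time in both genotypes, though with libraries scaled by their totals Ifngr2 did not pass as higher at T2.5, T4 and T6 in either genotype or at T9 in WT cells, nor Tyk2 at T2.5 in either. Ifngr1, the ligand-binding chain of the interferon gamma receptor, rose at T2.5 (in WT cells not with library totals), was higher at T4 in Loxp cells alone (lower there with library totals) and then fell below its untreated level. A gene is said to have changed where edgeR's quasi-likelihood test gave a Benjamini-Hochberg adjusted p under 0.05 over the 15685 genes tested. Of the 45 tests of a member at an LPS time against T0, 44 passed in WT cells (41 higher, 3 lower) and 45 in Loxp cells (42 higher, 3 lower). The test that did not pass was Ifngr1 at T4 in WT cells (-0.05). Much of the transcriptome moved too. Of all genes tested in WT cells, 58.8% passed at T2.5, 67.9% at T4, 70.5% at T6, 70.1% at T9 and 67.3% at T13, and in Loxp cells 57.0%, 66.7%, 70.3%, 70.9% and 65.8% did in the same order of times. Over the 5 times together, 31.4% of tests in WT cells were higher and 35.5% lower, and in Loxp cells 31.3% were higher and 34.9% lower. All LPS times of a genotype share their T0 libraries.

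Ifnb1 went from nearly no reads to its highest level at T2.5 and then declined at each later time. Untreated WT libraries held 4, 4 and 3 reads of Ifnb1, and untreated Loxp libraries 5, 15 and 10. At T2.5 the WT libraries were at 91.3, 104 and 74.5 CPM and the Loxp libraries at 195, 107 and 147 CPM. Every LPS library of either genotype lay above every untreated library. The rise to T2.5 was 10.24 on the log2 scale in WT cells (SE 0.48; adjusted p = 4.75e-18) and 9.57 in Loxp cells (SE 0.43; adjusted p = 1.94e-18). It ranked number 3 in WT and number 1 in Loxp cells among the 15685 genes. With 11 reads of Ifnb1 in all 3 untreated WT libraries, the size of the fold rests on few reads.

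**Figure D1:**
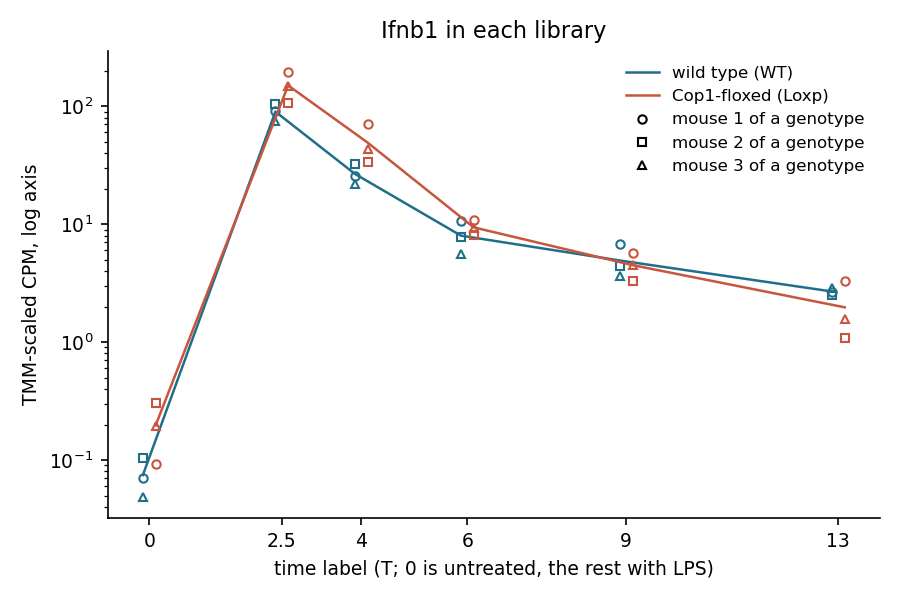
Ifnb1 in every library, as CPM scaled by TMM on a log axis, against the time label (0 is untreated). Points are libraries, shapes are the mice of a genotype and lines join group means; every mouse peaks at T2.5, and the Loxp libraries lie above the WT libraries at T2.5 and T4.

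After T2.5 the mean level of Ifnb1 in WT cells was 2.99% of its T2.5 level by T13, and in Loxp cells 1.31%. In WT cells the steps from T2.5 to T4 (-1.75), T4 to T6 (-1.74) and T9 to T13 (-0.87) passed the test. The step from T6 to T9 (-0.69, adjusted p = 0.161) did not, but passed with a block per mouse (adjusted p = 0.0130), where 14.7% of all genes did. In Loxp cells all 4 steps were falls, of -1.61, -2.39, -1.06 and -1.20. At T13 the WT libraries were at 2.64, 2.53 and 2.89 CPM and the Loxp libraries at 3.27, 1.08 and 1.57 CPM, and all lay above every untreated library.

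The other interferon genes gave little signal. Of 18 listed genes for interferon alpha, epsilon, kappa, zeta, lambda and gamma, 0 passed the filter on low counts, 9 had no read in any library and the highest count in a library was 9, for Ifna5, named here after its values were seen. Only reads that aligned to a single place were counted, so the near-identical interferon alpha genes can be undercounted.

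The chains of the type I receptor rose early and stayed high. Ifnar1, the signalling chain that binds TYK2, stood at 162, 136 and 164 CPM in untreated WT libraries and at 614, 538 and 548 CPM at T4, its highest time. In Loxp libraries it went from 162, 154 and 165 to 634, 631 and 617 CPM. The groups did not overlap, and the log2 fold changes at T4 were 1.88 in WT and 1.97 in Loxp cells. Ifnar1 rose from T2.5 to T4 (0.29 and 0.37 in WT and Loxp cells) and fell from T6 to T9 (-0.40 and -0.34); the step from T9 to T13 in Loxp cells (-0.16) passed with a block per mouse (adjusted p = 0.0233; 59.4% of all genes passed), not without it (adjusted p = 0.083).

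Ifnar2, the chain that binds the ligand with high affinity, was highest at T6. In WT cells it went from 116, 149 and 131 CPM to 374, 344 and 407 CPM, and in Loxp cells from 129, 116 and 131 CPM to 427, 405 and 419 CPM. The untreated and T6 libraries did not overlap in either genotype (log2 fold changes 1.51 and 1.73). Between LPS times it moved little, and only the Loxp step from T9 to T13 (-0.28) passed; with a block per mouse the WT step from T6 to T9 (-0.23, adjusted p = 0.0348) and the Loxp step from T2.5 to T4 (0.20, adjusted p = 0.0328; 36.1% of all genes passed) did as well. Ifnar2 overlaps the gene model Gm36587, which held at most 103 reads in a library.

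Ifnar2, Il10rb, Ifnar1 and Ifngr2 lie in this order within chromosome 16, from 91372783 to 91564007 on GRCm38.p6, and Ifnar1, Ifnar2 and Ifngr2 had their highest mean levels at T4, T6 and T13 in WT cells and at T4, T6 and T6 in Loxp cells. Ifngr2, the signalling chain of the interferon gamma receptor that binds JAK2, had its smallest rise at T2.5 in both genotypes and, in WT cells, its highest mean level at T13, where its libraries overlapped those of T6 (269 to 303 CPM). In WT libraries it stood at 123, 139 and 131 CPM untreated, at 182, 174 and 192 CPM at T2.5 and at 293, 304 and 294 CPM at T13. In Loxp libraries it stood at 138, 136 and 140, at 186, 208 and 189 and at 294, 278 and 294 CPM. Each of these 3 groups was separate from the next in both genotypes. The rise from T4 to T6 was 0.51 in WT and 0.49 in Loxp cells. The log2 fold changes at T2.5 (0.48 and 0.49) and T4 (0.60 and 0.68) turned negative when libraries were scaled by their totals alone (-0.18 and -0.14 at T2.5, -0.30 and -0.20 at T4), a scaling that moved the median of all genes with LPS from between -0.15 and -0.01 to between -1.16 and -0.64.

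Ifngr1 also rose at T2.5, but then parted from Ifngr2 and fell to its lowest level at T9. It stood at 104, 122 and 122 CPM in untreated WT libraries, at 186, 174 and 181 CPM at T2.5 and at 48.3, 41.6 and 49.5 CPM at T9. In Loxp libraries it stood at 110, 96.1 and 103 CPM, at 209, 194 and 203 CPM and at 50.8, 54.4 and 52.6 CPM. The T2.5 libraries lay above all untreated libraries of their genotype and the T9 libraries below them. The log2 fold change was 0.64 at T2.5 and -1.32 at T9 in WT cells, and 0.97 and -0.97 in Loxp cells; with library totals the WT value at T2.5 was -0.03. At T9 the mean level was 0.401 of the untreated level in WT and 0.510 in Loxp cells. From T9 to T13 it rose again, by 0.60 in WT and 0.31 in Loxp cells.

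**Figure D2:**
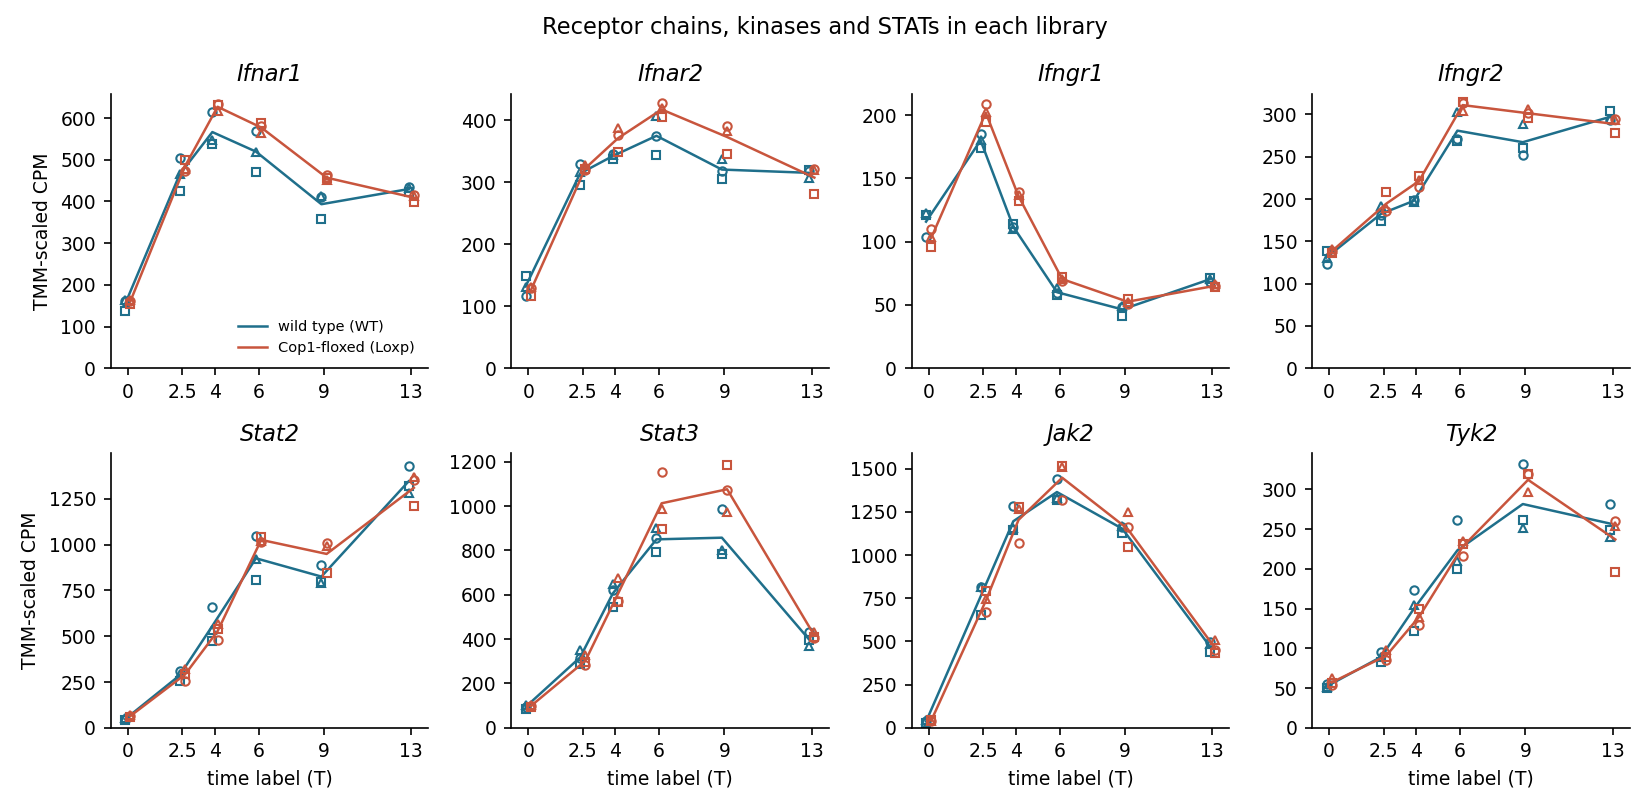
The 4 receptor chains, 2 STATs and 2 kinases in every library, as CPM scaled by TMM against the time label, with points for libraries (shapes are mice) and lines for group means. Ifngr1 peaks at T2.5 and is lowest at T9, while Stat2 is highest at T13 and Stat3 and Jak2 fall from T9 to T13; with library totals in place of TMM the early values of Ifngr1 in WT cells and of Ifngr2 are not above T0.

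Because the chains of the interferon gamma receptor moved apart, their ratio changed within each library. In deposited RPKM, a level per length of the gene model, the ratio of Ifngr1 to Ifngr2 in the WT libraries was 0.828, 0.862 and 0.925 at T0, 1.01, 0.984 and 0.930 at T2.5 and 0.189, 0.158 and 0.169 at T9. In Loxp libraries it was 0.784, 0.696 and 0.726, then 1.11, 0.919 and 1.06, then 0.166, 0.181 and 0.169. All T9 libraries lay below all untreated libraries, and a ratio within a library does not depend on how libraries are scaled. The ratio of Ifnar1 to Ifnar2 moved less, with group means from 0.529 to 0.754 over the 12 groups.

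Jak2, the kinase of the interferon gamma receptor and of many cytokine receptors, had the largest rise of the 8 genes other than Ifnb1 at T2.5, T4, T6 and T9. It went from 38.6, 28.0 and 42.8 CPM in untreated WT libraries to 812, 655 and 813 CPM at T2.5 and 1442, 1319 and 1333 CPM at T6. In Loxp libraries it went from 41.7, 46.9 and 40.0 CPM to 667, 791 and 748 CPM and 1319.7, 1516 and 1507 CPM. No group overlapped the next. The log2 fold change at T6 was 5.22 in WT and 5.08 in Loxp cells, a 37.4-fold and a 33.8-fold rise of the mean. From T9 to T13 Jak2 fell by 1.28 in WT and by 1.31 in Loxp cells on the log2 scale. The Loxp step from T4 to T6 (0.27, adjusted p = 0.0774) passed with a block per mouse (adjusted p = 0.0245; 34.8% of all genes passed).

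Tyk2, the kinase bound to IFNAR1, rose less and later than Jak2. Its WT libraries stood at 54.9, 49.9 and 51.3 CPM at T0, at 95.3, 82.4 and 89.7 CPM at T2.5 and at 331, 262 and 251 CPM at T9. Its Loxp libraries stood at 53.2, 56.1 and 62.1, at 85.4, 88.8 and 98.1 and at 320, 319 and 297 CPM. These groups were separate, and T9 was its highest time in both genotypes (log2 fold changes 2.43 and 2.45). The WT step from T6 to T9 (0.33, adjusted p = 0.0731) passed with a block per mouse (adjusted p = 0.0108). From T9 to T13 Tyk2 fell in Loxp cells (-0.40), while the WT step was -0.13 and did not pass. The RPKM of Jak2 relative to that of Tyk2 had a group mean of 0.662 in untreated WT cells, 8.05 at T2.5 and 1.75 at T13, and of 0.714, 7.68 and 1.87 in Loxp cells.

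Stat2, the DNA-binding partner in ISGF3 that is particular to type I and III interferons, rose to its highest level at the last time. In WT cells it went from 46.2, 41.6 and 52.7 CPM at T0 through 308, 255 and 296 CPM at T2.5 to 1430.2, 1323 and 1284 CPM at T13. In Loxp cells it went from 64.3, 58.4 and 70.7 CPM through 258, 294 and 319 CPM to 1351, 1209 and 1371 CPM. The groups did not overlap within a genotype, and the T13 level was 28.7 and 20.3 times the untreated level in WT and Loxp cells. Stat2 is the member whose window holds the ISRE letters shown above. It overlaps the gene Apof, which held at most 23 reads in a library.

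Stat3 rose to T6 and T9 and then fell. In WT cells it went from 92.2, 87.0 and 103 CPM at T0 to 985, 785 and 802 CPM at T9 and back to 431, 396 and 368 CPM at T13. In Loxp cells it went from 96.8, 95.3 and 103 CPM to 1072, 1184 and 972 CPM and back to 407, 410 and 433 CPM. All T13 libraries lay between the untreated and the T9 libraries of their genotype. From T9 to T13 Stat3 fell by 1.11 in WT and by 1.37 in Loxp cells, while Stat2 rose by 0.70 and 0.47 over the same step. The RPKM of Stat2 relative to that of Stat3 had group means of 0.964 at T9 and 3.37 at T13 in WT cells, and of 0.889 and 3.13 in Loxp cells.

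Of the 36 tests of a member between neighbouring LPS times, 21 passed in WT cells (12 higher, 9 lower) and 26 in Loxp cells (13 higher, 13 lower). Of all genes tested in WT cells, 30.7%, 24.7%, 11.1% and 55.9% passed at the steps to T4, T6, T9 and T13, and 31.7%, 30.0%, 16.0% and 55.6% in Loxp cells. Over the 4 steps together 15.6% of tests were higher and 15.0% lower in WT cells, and 16.5% higher and 16.8% lower in Loxp cells. The comparison of steps between genotypes was added after the other results were seen; 0 of 36 member tests passed with edgeR (4 had an unadjusted p under 0.05), 0 with DESeq2 and 0 with a block per mouse, and 5 of 62740 tests of all genes did (0.00797%).

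Per length of gene model, the order of the members changed with LPS. In untreated WT cells the mean RPKM was 61.9 for Ifngr2, 54.0 for Ifngr1, 40.5 for Ifnar2, 21.1 for Ifnar1, 20.5 for Stat3, 10.2 for Stat2, 10.1 for Tyk2, 6.69 for Jak2 and 0.0943 for Ifnb1. The ranges of Ifnar1 and Stat3 overlapped, as did those of Stat2 and Tyk2, and the receptor chains thus led the order. At T2.5 Jak2 (142 RPKM) and Ifnb1 (117 RPKM) stood highest, with overlapping ranges, and Tyk2 (17.7 RPKM) lowest. At T13 Stat2 led at 297 RPKM, followed by Ifngr2 at 143 RPKM, and Ifngr1 at 33.3 RPKM stood above Ifnb1 alone at 3.47 RPKM. In Loxp cells the order at T0 was that of WT cells, Ifnb1 (190 RPKM) stood above Jak2 (134 RPKM) at T2.5, where the ranges of these genes overlapped, and Stat2 led at T13 with 295 RPKM.

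**Figure D3:**
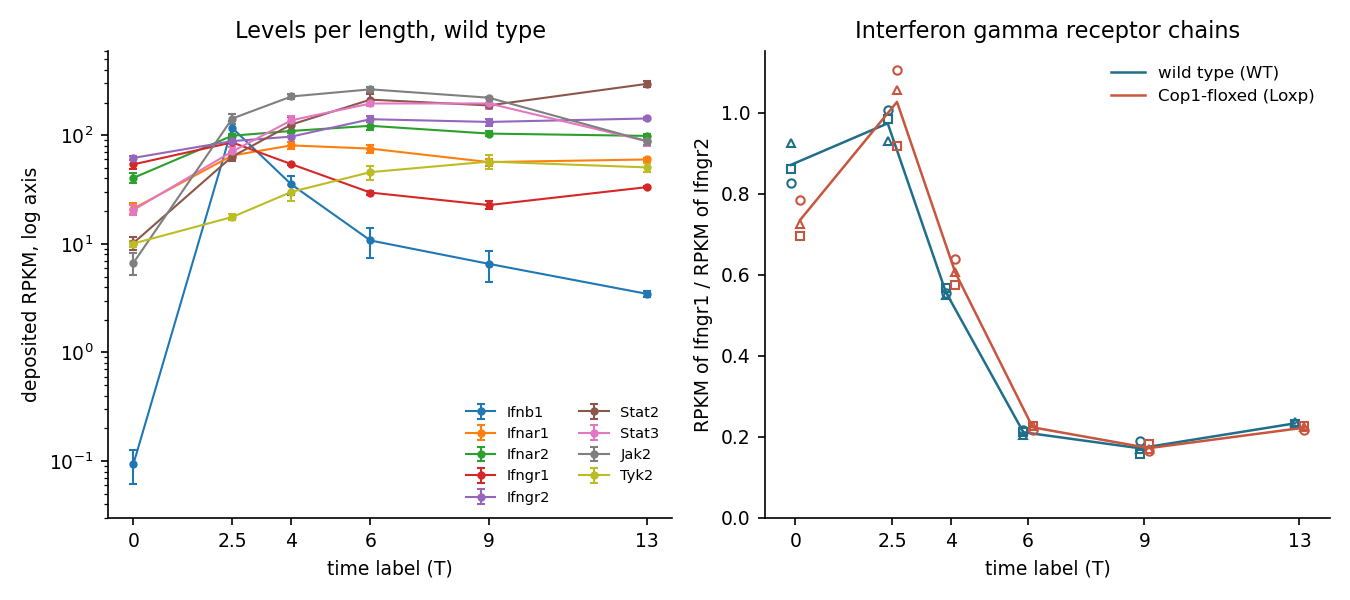
Left, mean deposited RPKM (bars, SD of 3 libraries) of the 9 genes in WT cells on a log axis against the time label. Right, the ratio of Ifngr1 to Ifngr2 RPKM in each library, with lines for group means and shapes for mice; it lies between 0.696 and 0.925 untreated and between 0.158 and 0.189 at T9.

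Between genotypes few tests of the 9 genes passed. Ifnb1 differed by 0.74 at T2.5 and 0.88 at T4 on the log2 scale, and neither passed. Of 54 member tests at single times, 4 passed, all higher in Loxp cells, and 3.44% of all such tests were higher. Of all genes, 9.57% passed in either direction at T0, 3.9% at T2.5, 4.86% at T4, 7.8% at T6, 10.4% at T9 and 3.1% at T13. The 4 were Stat2 at T0, Ifngr1 at T4 and T6 and Stat3 at T9, and each was under 0.5 on the log2 scale. A p that missed the threshold does not show equal levels.

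**Figure D4:**
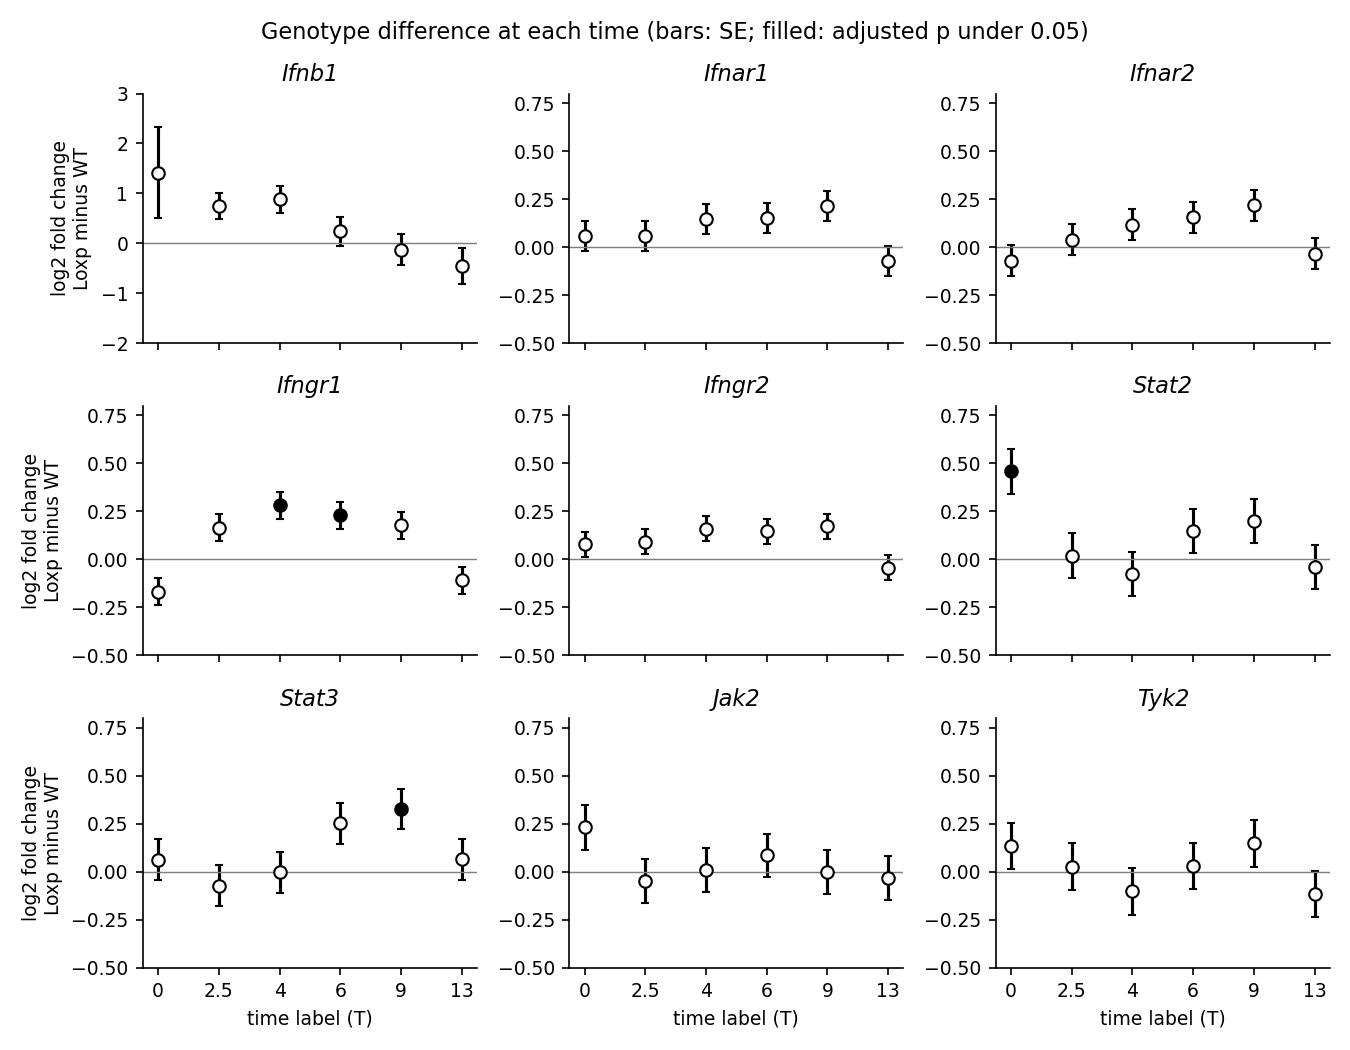
Log2 fold change of Loxp minus WT cells for each of the 9 genes at each time label, with bars of 1 SE; filled points passed at an adjusted p under 0.05 with edgeR. The scale of Ifnb1 is wider than that of the others; filled points are Stat2 at T0 (0.46), Ifngr1 at T4 (0.28) and T6 (0.23) and Stat3 at T9 (0.33).

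Untreated Stat2 was 46.2, 41.6 and 52.7 CPM in WT and 64.3, 58.4 and 70.7 CPM in Loxp libraries. All Loxp libraries lay above all WT libraries. The log2 fold change was 0.46 (SE 0.12, adjusted p = 0.00937), without WT replicate 2 it was 0.35 (adjusted p = 0.0583), without its T0 library alone 0.38 (adjusted p = 0.061), and it did not pass without Loxp replicate 1 or 3 either. Over 18 alternative settings it passed in 13. In an edgeR fit of the 6 untreated libraries alone it did not pass (adjusted p = 0.315), and that fit called 9 of 14555 genes. At the LPS times the difference lay between -0.08 and 0.20, the libraries overlapped and no test passed. Loxp minus WT of the LPS response was -0.54 at T4 and -0.50 at T13 and did not pass (adjusted p = 0.297 and 0.228); with a block per mouse it was -0.52 and -0.50 and passed (adjusted p = 0.0383 and 0.0299; 0.81% and 2.11% of all genes passed). The fit with limma-voom and a correlation within mice gave -0.53 and -0.50, which did not pass (adjusted p = 0.112 and 0.0685).

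The targets of ISGF3, the factor that contains STAT2, were also higher in untreated Loxp cells. The list was chosen with earlier results of these data known, and 5.6% of all genes tested were higher at T0. Of 21 listed targets 17 were higher and 0 lower at T0, with a median log2 fold change of 0.66 against 0.03 over all genes. Ifit1 (1.44), Ifit2 (1.11) and Ifit3 (0.72), which encode antiviral RNA-binding proteins, and Mx2 (1.17), an antiviral GTPase, were among them. Without WT replicate 2 the count was 17, where 516 of 15858 genes in all were higher. Without its T0 library the count was 19, with 753 of 15910 genes higher. Leaving out each mouse gave 12 to 17, with 381 to 1421 genes in all higher. A fit of the 6 untreated libraries alone gave 0 of 21 at a median of 0.61, and called 9 of 14555 genes in all. At the 5 LPS times 0 of 21 passed between genotypes. These differences at T0 came together with the lower stromal and endothelial and higher macrophage marker levels given above. In Loxp cells 8 of 11 tested stromal and endothelial markers were lower at T0, as were 3.97% of all genes. The part of these markers in the result was not tested. In such bulk libraries fewer cells of a type and less RNA per cell cannot be told apart.

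Ifngr1 at T4 was 111, 114 and 110 CPM in WT and 139, 132 and 137 CPM in Loxp libraries, and at T6 59.6, 57.5 and 63.2 CPM in WT and 68.8, 72.4 and 70.2 CPM in Loxp libraries. The genotypes did not overlap at either time. The log2 fold changes were 0.28 (SE 0.07, adjusted p = 0.0147) and 0.23 (SE 0.07, adjusted p = 0.0419). Over 18 alternative settings the T4 value lay between 0.18 and 0.30 and passed in 11; the T6 value lay between 0.03 and 0.27 and passed in 4. The T4 call was lost without WT replicate 3, Loxp replicate 1 or Loxp replicate 3, and the T6 call without any of the 6 mice. Without WT replicate 2 the T4 value was 0.29 (adjusted p = 0.0257) and the T6 value 0.18 (adjusted p = 0.173), and without Loxp T9 replicate 2 the T6 value was 0.19 (adjusted p = 0.113). At T4 8 of 11 and at T6 6 of 11 stromal and endothelial markers were lower in Loxp cells, against 2.75% and 3.61% of all genes. The part of these markers in the result was not tested.

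In an F test of the 5 differences in LPS response, Ifngr1 passed (adjusted p = 0.0336), the only member to do so; 0.599% of all genes did. Its response was higher in Loxp cells by 0.33 at T2.5, 0.45 at T4, 0.40 at T6, 0.35 at T9 and 0.06 at T13. Of these single terms the T4 term passed (SE 0.10, adjusted p = 0.0286) among 45 member tests, and of all genes 0.408%, 0.357%, 0.249%, 0.848% and 0.733% passed at the 5 times. The untreated level entered each term, with a Loxp minus WT value of -0.17 at T0 that did not pass alone. With a block per mouse the T6 term passed as well (adjusted p = 0.0478; 0.88% of all genes). The F test passed in 8 of 17 alternatives, and not without WT replicate 2 (adjusted p = 0.189), WT replicate 3, any of the 3 Loxp mice or Loxp T9 replicate 2 (adjusted p = 0.0582). The T4 term lost its call without any of the 6 mice and without WT T0 replicate 2.

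Ifnb1 at T2.5 and T4 lay higher in every Loxp library than in every WT library, but neither difference passed with edgeR. At T4 the WT libraries were at 25.7, 32.3 and 22.0 CPM and the Loxp libraries at 70.2, 33.7 and 43.4 CPM. The Loxp libraries spread widely, with replicate 1 highest and replicate 2 lowest at each LPS time. The difference on the log2 scale was 0.74 (SE 0.26, adjusted p = 0.122) for T2.5 and 0.88 (SE 0.27, adjusted p = 0.0516) for T4, and over 18 alternatives the adjusted p at T4 lay between 0.0134 and 0.336 and was under 0.05 in 5. At T2.5 it was under 0.05 in 2 of 18, with limma-voom and a correlation within mice (0.71, adjusted p = 0.0243) and with the replicate number as a block (0.70, adjusted p = 0.0497). By T9 and T13 the sign had turned, to -0.13 and -0.45, with overlapping libraries. The F test over the LPS responses gave Ifnb1 an adjusted p of 0.528, and of 0.0157 with a block per mouse, where 2.14% of all genes passed; with that block the Loxp minus WT terms ran from -0.67 at T2.5 to -1.90 at T13, and 0 of the 5 passed singly. With limma-voom and a correlation within mice the F test gave Ifnb1 an adjusted p of 0.889.

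Stat3 at T9 was 985, 785 and 802 CPM in WT and 1072, 1184 and 972 CPM in Loxp libraries. The highest WT library lay above the lowest Loxp library. The log2 fold change was 0.33 (SE 0.11, adjusted p = 0.0436), and without Loxp T9 replicate 2, the highest library, it was 0.22 (adjusted p = 0.301). Without WT replicate 2 it was 0.25 (adjusted p = 0.178), and without WT replicate 3 or any of the 3 Loxp mice it did not pass. Over 18 alternative settings it passed in 5. The call was also lost with DESeq2 size factors, library totals, no filter, a mean of 5 CPM, either limma fit on RPKM and the 6 libraries of T9 alone. Of all genes, 5.92% were higher in Loxp cells at T9. Of 10 listed STAT3 targets 5 were higher and 0 lower in Loxp cells at T9 (median 0.44 against 0.02 over all genes), among them Bcl3 (0.45), a nuclear partner of NF-kappa B, and Il1rn (0.44), which encodes the interleukin 1 receptor antagonist. Without Loxp T9 replicate 2 the count was 5, where 419 of 16000 genes in all were higher. Leaving out each mouse gave 2 to 5, with 384 to 913 genes in all higher. A mean of 5 CPM as the filter gave 3, with 480 of 9212 genes higher. Library totals gave 2 at a median of 0.26, with 244 of 15685 genes higher. At T9 4 of 8 macrophage markers were higher and 6 of 11 stromal and endothelial markers lower in Loxp cells. Of all genes, 5.92% were higher and 4.53% lower. The part of these markers in the result was not tested.

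When the 6 libraries of each mouse were summed, 0 of the 9 genes passed between genotypes with edgeR or with DESeq2 (1 had an unadjusted p under 0.05 with each), against 7.33% of all genes. Ifnb1 stood at 0.76 (SE 0.25, adjusted p = 0.122).

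Genes around the members moved with LPS as follows in WT cells. Of all genes tested there, 28.8% were higher and 30.0% lower at T2.5, and 32.6% higher and 34.7% lower at T13. Of 7 other Janus kinases and STATs, 7 were higher at T2.5 (median 1.10, against -0.06 over all genes) and 7 at T13 (0.63), with 1 lower and 6 higher at each time between; Stat5a rose by 4.39 at T2.5 and 0.98 at T13, and Stat5b by 1.07 and 0.63. Of 14 genes between TLR4 and Ifnb1, 11 were higher and 0 lower at T2.5 (median 1.23), with Nfkb1 at 3.46, Cd14 at 2.42, Ikbke at 2.31 and Rela at 1.91. Of 13 tested receptor chains that use these kinases or STATs, 8 were higher and 2 lower at T2.5 (median 0.27), among the higher Il4ra (3.18), Osmr (2.20), Il13ra1 (2.17) and Il10ra (1.85), a chain of the interleukin 10 receptor. Osmr, for the oncostatin M receptor, was lower in Loxp cells at every time, from -1.12 at T4 to -1.74 at T0. It reached at most 14.4 CPM in a library. Of the 13 chains, 3 were higher and 1 lower in Loxp cells at T0, and likewise at T9. Of all genes, 5.6% were higher and 3.97% lower at T0, and 5.92% and 4.53% at T9. Stromal and endothelial markers were also lower in Loxp cells at T0, and their part in the Osmr result was not tested.

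Most of the listed negative regulators were higher with LPS too. Of 12, 11 were higher and 1 lower at T2.5 in WT cells (median 0.76, against -0.06 over all genes). At T13 8 were higher and 1 lower. Of all genes, 28.8% were higher at T2.5 and 32.6% at T13. Socs3 (8.65), Socs1 (8.19) and Cish (7.82), which encode inhibitors of cytokine receptor signalling, and Usp18 (5.10), which encodes an inhibitor that binds IFNAR2, rose at T2.5. By T13 Cish was at -0.02 against T0 in WT cells, while Socs3 (6.50), Socs1 (6.14) and Usp18 (7.14) were still higher. All 21 ISGF3 targets were higher at each LPS time in both genotypes, with medians in WT cells between 5.47 at T2.5 and 6.47 at T4 (6.40 at T13) and in Loxp cells between 4.72 at T2.5 and 5.88 at T9 (5.45 at T13), and all 10 STAT3 targets were higher at T2.5 in WT cells (median 3.63).

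Patterns were compared by the correlation of log2 CPM group means over the 12 groups, among 9463 genes with a mean of 5 CPM or more in their highest group. Pseudogenes and most gene models without a proper name were left out. The genes most like Ifnb1 were Ube2f (r = 0.994), Coq10b (0.988) and Eif4e (0.986). Those most like Ifnar1 were Ap2b1 (0.995), Dpf2 (0.991) and Zfp719 (0.990), and those most like Ifnar2 were Slc39a1 (0.996), Ggct (0.994) and Myd88 (0.994). Ifngr1 was closest to Ttyh2 (0.987), Supt3 (0.987) and Hdgf (0.985), and Ifngr2 to Rbm5 (0.992), AB124611 (0.988) and Stard3 (0.987). Stat2 was close to Cyfip1 and Trim34a (0.998 each), Stat3 to Cxcl16 (0.997), Rasa4 (0.996) and Rab22a (0.995), Jak2 to Parp14, Rnf19b and Cd40 (0.997 each), and Tyk2 to Slc6a4, Hmgn3 and Rnf214 (0.995 each). Among the members themselves the highest value was that of Ifnar2 with Jak2 (0.982) and the lowest that of Ifngr1 with Tyk2 (-0.765). These values describe 12 group means that share mice and times and carry no test.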

How the data were processed

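Polyadenylated RNA of bone marrow-derived macrophages was sequenced from 6 mice, 3 per genotype, at 6 times each; the labels give each replicate its own individual. The deposited counts are, per the file headers, whole numbers of reads aligned to a single place in each Entrez gene model, without normalisation. RPKM values were also deposited, adjusted by the authors with size factors, per the file headers. A deposited table gives model sizes and symbols, an other kind of value. GSNAP and GRCm38 are named in the submitters' processing notes; neither versions nor the strand setting appear in the sources used here, so overlapping genes cannot be told apart.

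Counts were tested with edgeR 4.0.16 in R 4.3.3: filterByExpr over 12 groups (15685 genes), TMM scaling and quasi-likelihood tests with 1 mean per group over 36 libraries, p-values adjusted by Benjamini-Hochberg within a comparison at 0.05. CPM values are TMM-scaled, folds are log2, and SE is the size of the log2 value divided by the root of F. Summed counts per mouse were tested on 17182 genes. RPKM was used for levels between genes and in limma 3.58.1 on log2(RPKM + 1) and + 0.1 at a mean RPKM of 0.1 or more (14747 genes). The code was tested on simulated data.

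Other settings were DESeq2 1.42.0 and its size factors, library totals, no filter, a mean of 5 CPM, limma-voom with a correlation within mice (0.148), blocks, the 6 libraries of a comparison alone, and leaving out mice or libraries. Mice pair the libraries of a genotype, per the labels: deviations from group means had a mean r of 0.173 over 90 pairs from the same mouse at other times and -0.087 between mice. Of 36 replicate pairs the lowest chi-square per degree of freedom was 8.50, so no pair agreed within sampling noise. The members and lists were chosen with earlier results of these data known. Genes named are the 9 members, the 3 most like each and up to 4 of each list by adjusted p at T2.5 in WT cells; 2 genes that the rule names are not reported here. Sequences and positions are from RefSeq on GRCm38.p6, and 9 of 9 members matched.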

Additional observations from a re-analysis of the deposited data

Results flagged for a closer look

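The LPS response of Ifngr1 differed between genotypes by a test of the difference itself. The F test over the 5 LPS times gave an adjusted p of 0.0336 with edgeR, and the term at T4 was 0.45 higher in Loxp than in WT cells (adjusted p = 0.0286). At T4 all 3 Loxp libraries lay above all 3 WT libraries, and at T0 they overlapped. The F test passed in 8 of 17 alternatives and did not pass without Loxp T9 replicate 2 (adjusted p = 0.0582), without WT replicate 2 or 3 or without any of the 3 Loxp mice. The T4 term passed in 9 of 17 alternatives and lost its call without any of the 6 mice and without WT T0 replicate 2.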

How the results depend on the processing

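Over all settings 5389 values of the members were recomputed. Of these, 5017 kept direction and side of the threshold, 101 lost a call and 69 gained a call. Another 192 that passed under neither setting had the other sign. The last 10, which passed in the main fit, the alternative or both, turned sign, all with library totals. These were Ifnar1 (0.17) and Ifnar2 (0.054) from T9 to T13 in Loxp cells; Ifngr1 at T2.5 in WT (-0.027) and T4 in Loxp cells (-0.48); Ifngr2 at T2.5 (-0.18 in WT, -0.14 in Loxp) and T4 (-0.30 in WT, -0.20 in Loxp); and Ifngr2 from T2.5 to T4 (-0.063) and T9 to T13 (0.27) in Loxp cells. Of the 10, Ifnar1 and Ifngr2 from T9 to T13 in Loxp cells passed with library totals but not in the main fit. Calls with LPS numbered 41 to 45 in WT and 42 to 45 in Loxp cells, and steps 19 to 24 and 20 to 29.

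The 4 genotype calls of 54 member tests, where 6.61% of tests of all genes passed over the 6 times, became 2 with DESeq2 size factors, library totals, no filter, a mean of 5 CPM, either limma fit on RPKM and without Loxp T9 replicate 2 (3.71% to 6.18% of all genes), 6 with DESeq2 (7.68%), 7 with limma-voom (7.04%), with the replicate number as a block (7.75%) and without WT T0 replicate 2 (8.67%), and 0 with the 6 libraries of a time alone (4.38%); leaving out each mouse gave 0 to 5 (2.6% to 8.39%). With most of the settings that gave 2 calls the share over all genes moved little from 6.61%, and without a filter it was 3.71%. With so few calls the counts are not read as particular to the members. The 1 call of the F test over LPS responses became 0 with DESeq2 size factors, library totals, no filter and without Loxp T9 replicate 2, 2 with a block per mouse, and 0 to 1 without each mouse. Summed per mouse, 0 became 1 with LPS libraries only (Ifngr1, 0.19, adjusted p = 0.0293), a fit that called 9.24% of all genes. The causes were not tested. The replicate number marks different mice in the 2 genotypes (mean r of deviations -0.050), and blocking on it also called Ifnb1 at T2.5 and T4, as did limma-voom. Other than the calls given with it in the report, the block per mouse changed no call. Untreated Ifnb1, at 3 to 15 reads a library, limits any difference in its untreated level.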
